A study of Arabidopsis thaliana with 18 samples.

Results

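The comparison described here is the change of polysome loading in gcn2, that is, whether a transcript's share in polysomes differs between gcn2 and wild type. Loading is the log2 signal of polysomal RNA minus that of non-polysomal RNA of the same genotype and replicate number, and the change is the mean of the 3 gcn2 loadings minus the mean of the 3 wild-type loadings. The comparison takes in 12 of the 18 ATH1 microarrays of the study, and all 22746 probe sets that are not array controls, of 22810 in the table. The 12 arrays fall into 4 groups of 3: wild-type polysomal, wild-type non-polysomal, gcn2 polysomal and gcn2 non-polysomal RNA. The other arrays, of total RNA, enter only where named.

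All plants were Arabidopsis thaliana of the Landsberg erecta line, which carries a mutation in the ERECTA receptor kinase gene, so that both genotypes share it. The wild-type and gcn2 seedlings were 10 days old, had grown at 22 °C under a light intensity of 80 µmol per m2 and s for 16 h a day, on GM medium holding sucrose (1%) and agar (0.8%), and were frozen 4 h after the lights went on. Aerial parts were the labelled tissue. The allele of gcn2 is not given in the sources used here, no amino acid stress or other treatment is named in the labels, and GCN2 itself was not analysed here. Lysates had been run on polysome gradients, of which the 6 top fractions were pooled as non-polysomal and the 6 bottom fractions as polysomal RNA. Separate cultures are not named for the replicates in the labels, and every p-value therefore rests on a spread between gradients that may be technical.

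GCN2 is a protein kinase that binds uncharged tRNA and phosphorylates the alpha subunit of eIF2, the factor that brings the initiator tRNA to the ribosome, which lowers the rate of initiation. In yeast, phosphorylated eIF2 at the same time lets ribosomes pass short upstream reading frames in the leader of the GCN4 transcript and reach its main frame. In Arabidopsis GCN2 is the main known kinase of eIF2 alpha, and several transcripts carry conserved upstream reading frames through which sucrose, polyamines or phosphocholine control translation of the main frame.

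The labelled tissue could be checked only by levels. The nuclear photosystem genes PSAN (11.3 to 12.7, log2 signal over the 12 arrays) and LHCB4.2 (10.6 to 11.4) were high on every array, and the plastid genes rbcL (6.42 to 11.8) and psbA (7.61 to 14.0) varied more. PYK10, a beta-glucosidase known from roots, had a signal of 7.88 to 10.3, above the median of every array. These levels therefore do not settle whether the tissue was aerial only. Array medians lay between 5.05 and 5.18, and 0 of 66 pairs of arrays held identical values. A genotype was called near background for a probe set when the mean of its 6 arrays lay under 3.40, the mean of the arrays' lower quartiles. This held in both genotypes for 5414 probe sets, in wild type only for 313, in gcn2 only for 143 and in neither for 16876. Precision is limited by having 3 arrays per group.

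Polysome loading differed by less than 2-fold between gcn2 and wild type for most transcripts, and 3 probe sets passed the test, all with lower loading in gcn2. These were the loci AT4G03156 and AT3G30200 and 1 probe set shared by several loci, and in all 3 the signal was near background in wild type and highest in non-polysomal gcn2 RNA. Of the 22746 probe sets tested with limma at an adjusted p of 0.05, 0.0132% were lower and 0% higher in gcn2. Among the 16876 probe sets near background in neither genotype 0 passed, and the smallest adjusted p there was 0.0540, for an unannotated probe set with higher loading in gcn2. At an unadjusted p under 0.05 there were 2270 probe sets (9.98%), against 1137.3 that make up 5% of the tests. Of these, 1181 were higher (5.19% of all tested) and 1089 lower (4.79%). The 3 gcn2 loadings lay all above the 3 wild-type loadings in 1855 probe sets (8.16%) and all below them in 1626 (7.15%).

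The count of passing probe sets depended on how the arrays were paired. With the replicate number as a block between genotypes, 8 probe sets passed (3 higher and 5 lower, 2 of the 8 near background in neither genotype), the 3 named above among them. With the 12 arrays treated as 4 unpaired groups, 0 passed and 1065 had an unadjusted p under 0.05, and AT4G03156 then had an adjusted p of 0.0797. Left out in turn, the wild-type gradient 2 lowered the count to 1, and gcn2 gradient 3 raised it to 6.

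The loading of a transcript ranged far more between transcripts than between genotypes. Over all probe sets the SD of mean loading was 0.56 in wild type and 0.57 in gcn2, and the SD of the change was 0.26. Arrays had similar medians, so a loading of 0 is close to that of the median transcript. It need not mean equal amounts in both RNA pools. Enriched and depleted are therefore relative terms here. The BioB and BioC control probe sets, which were not used to measure the amounts in the pools, had a mean loading of -0.94 in wild type and -0.85 in gcn2. Loading differed from 0 at an adjusted p of 0.05 in 8713 probe sets in wild type (38.3%), of which 4455 were enriched in polysomes and 4258 depleted. In gcn2 it did so in 8516 (37.4%), 4399 enriched and 4117 depleted. Both genotypes shared 6379 of these, which is 73.2% of the wild-type and 74.9% of the gcn2 calls, and 6370 had the same sign. Across probe sets, mean loadings of the genotypes correlated at r = 0.894, as a description across genes that share arrays. Single gradients correlated at 0.800 to 0.824 within wild type, 0.786 to 0.821 within gcn2 and 0.754 to 0.812 between genotypes.

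**Figure D1:**
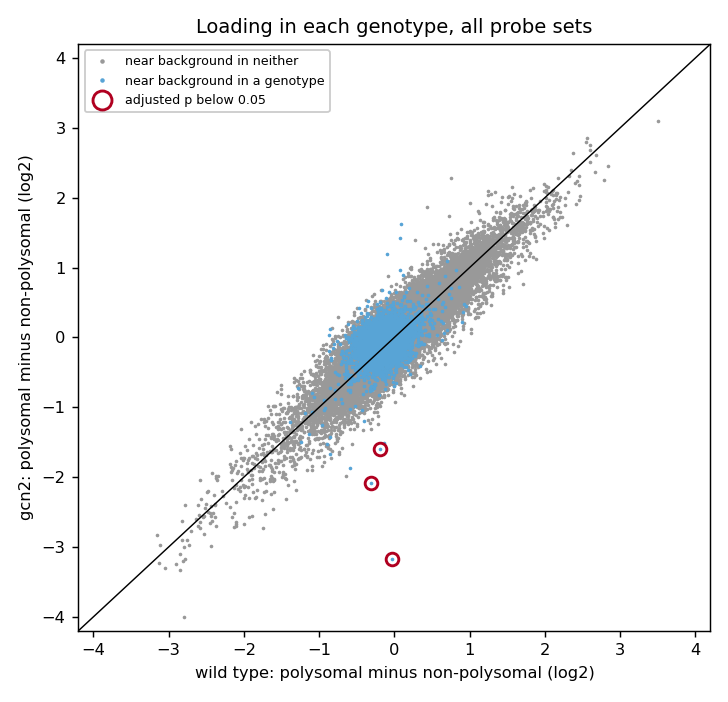
Mean loading (log2, polysomal minus non-polysomal, 3 gradients per genotype) in wild type on the horizontal axis and in gcn2 on the vertical axis, 1 point per probe set, with the line of equal loading. Points near background in a genotype are blue, the others grey, and the 3 ringed probe sets, which lie below the line, passed the test.

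The intervals give the precision of single changes. They are not adjusted for the number of tests, so they do not give the size of change that would pass. AT3G30200 passed at -1.40, whereas ICL at -1.34 and COR15A at 1.01, both described below, did not. The 95% confidence interval of a change reached a median of 0.414 log2 units to either side. For 95.5% of the 16876 probe sets near background in neither genotype, and for 96.2% of all, the whole interval lay within a 2-fold change. The 5th and 95th percentiles of the change were -0.42 and 0.43. Only 19 probe sets had a change over 1 in size, 8 higher and 11 lower in gcn2, and 11 of the 19 were near background in neither genotype.

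No shift common to all transcripts was measured, which array-wide normalization by the authors would in any case remove. The median loading over all probe sets was -0.06, -0.06 and -0.04 in the wild-type gradients and -0.06, 0.01 and -0.02 in the gcn2 gradients. The difference of 0.03 had an exact two-sided permutation p of 0.2, where 3 against 3 gradients cannot give less than 0.1. Without probe sets near background it was 0.00 (exact permutation p = 0.9).

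AT4G03156 gave the strongest change. Its polysomal signal was 2.52, 1.99 and 2.52 (log2) in wild type and 4.38, 4.34 and 3.29 in gcn2. Its non-polysomal signal was 2.81, 1.94 and 2.37 in wild type and 7.43, 7.39 and 6.68 in gcn2. All 6 gcn2 arrays were thus above all 6 wild-type arrays, and non-polysomal gcn2 RNA stood apart from everything else. Its loading was -0.03 ± 0.23 (SD, n = 3) in wild type and -3.17 ± 0.19 in gcn2. The loading fell by 3.13 (log2, standard error 0.19, limma adjusted p = 4.14e-07). Since the wild-type level is near background, the wild-type loading compares background signals and its true value is not known. In total RNA the gcn2 signal was 2.37 higher than in wild type. In bulk tissue such a difference in level may stem from the number of cells that hold the transcript or from its amount per cell, which cannot be told apart.

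AT3G30200 had the same arrangement at a lower level. In polysomal RNA its signal was 2.65, 2.83 and 2.72 in wild type against 3.63, 3.69 and 3.47 in gcn2, and in non-polysomal RNA 2.87, 3.02 and 2.91 against 5.22, 5.48 and 4.87. Genotypes did not overlap in either fraction. Its loading went from -0.19 ± 0.02 (SD, n = 3) to -1.59 ± 0.20, and the loading fell by 1.40 (standard error 0.18, limma adjusted p = 0.00867). The probe set shared by several loci had a non-polysomal signal of 3.06, 2.91 and 3.52 in wild type and 6.26, 5.87 and 5.42 in gcn2. Its polysomal signal was 2.88, 2.48 and 3.21 in wild type and 3.59, 4.28 and 3.43 in gcn2. The loading fell by 1.77 (standard error 0.24, limma adjusted p = 0.00867), and the gradients of the genotypes did not overlap.

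**Figure D2:**
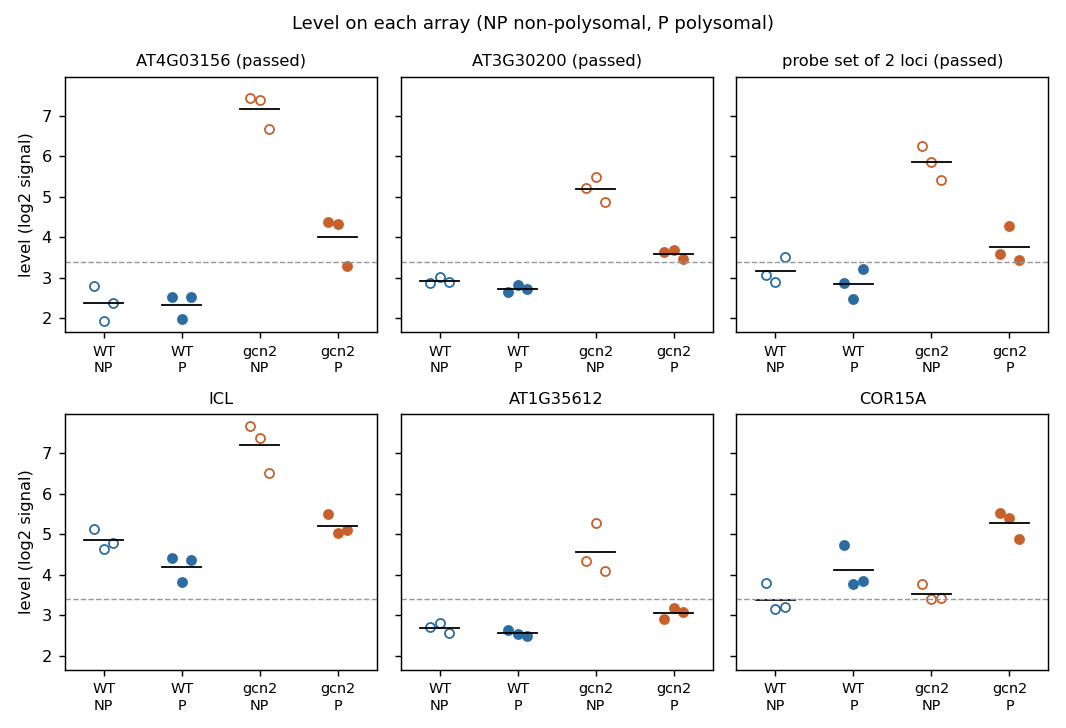
Level (log2 signal) of 6 probe sets on each of the 12 arrays, with open points for non-polysomal (NP) and filled points for polysomal (P) RNA, blue for wild type (WT), orange for gcn2, and a bar at each mean; the dashed line at 3.40 is the level taken as near background. In the 3 that passed, both wild-type groups lie mostly under that line and the gcn2 non-polysomal arrays lie highest.

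ICL, which encodes isocitrate lyase of the glyoxylate cycle that turns stored seed lipid into sugar, was the lowest in gcn2 among annotated transcripts near background in neither genotype, and it did not pass. Its non-polysomal signal was 5.13, 4.63 and 4.78 in wild type and 7.67, 7.38 and 6.52 in gcn2, and its polysomal signal 4.42, 3.81 and 4.37 against 5.50, 5.02 and 5.10. Every gcn2 array was thus above every wild-type array of the same fraction. Loading was -0.65 ± 0.21 (SD, n = 3) in wild type and -1.98 ± 0.50 in gcn2, a difference of -1.34 (95% interval -1.83 to -0.85) with a limma adjusted p of 0.0812. The block on replicate number gave it an adjusted p of 0.0232. AT1G35612, annotated as a pseudogene and near background in wild type, differed by -1.37 (limma adjusted p = 0.0812, and 0.0346 with the block). ICL is 1 of 7 measured genes of seed storage, oil bodies and the glyoxylate cycle, a list drawn up after its values were seen. At an unadjusted p under 0.05, PAP85 (0.89) and M17 (0.79), both near background in wild type, were higher (28.6%, against 5.19% of all probe sets). ICL was lower (14.3%, against 4.79%). The median change of 0.30 rests on members near background: over the 3 near background in neither genotype it was -0.18, and the difference of the list's per-gradient medians, likewise 0.30, became -0.14 over those 3.

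COR15A and LEA4-5, genes of the responses to cold and dehydration, were among the annotated transcripts with the highest loading in gcn2 relative to wild type, and neither passed. COR15A encodes a chloroplast protein that protects membranes during freezing. Its loading was 0.93, 0.62 and 0.64 in wild type and 1.75, 1.99 and 1.47 in gcn2, with no overlap. The difference was 1.01 (95% interval 0.60 to 1.42, limma adjusted p = 0.179). The genotype difference in COR15A was 1.15 in polysomal RNA, 0.14 in non-polysomal RNA and 0.01 in total RNA. Its non-polysomal mean was 3.39 in wild type, under the level taken as near background, and 3.53 in gcn2, just above it, so the loadings and the non-polysomal difference rest partly on background signal.

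LEA4-5, a late embryogenesis abundant protein gene of the dehydration response, had loadings of -0.04, -0.25 and 0.04 in wild type and 1.22, 1.08 and 0.33 in gcn2. Again the gradients did not overlap, although gcn2 gradient 3 lay well under the others. The difference was 0.96 (limma adjusted p = 0.259), and as in COR15A the polysomal signal differed (1.01) more than the non-polysomal (0.05) or the total signal (0.19). Of the 11 measured members of the list of late embryogenesis abundant and cold-induced genes, 9 had a positive change, 4 had an unadjusted p under 0.05 in that direction (36.4%, against 5.19% of all probe sets) and 0 passed. The others among the 4 were COR27 (0.69) and LEA (0.54), the latter near background in both genotypes. The list's median change was 0.38, against 0.01 over all probe sets. COR47, a dehydrin, stood at -0.10. The difference of the list's per-gradient medians, 0.40, became 0.22 without gcn2 gradient 1, 0.23 without wild-type gradient 3, 0.64 without gcn2 gradient 3 and 0.71 without dim probe sets.

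BSH, the SNF5-like subunit of the SWI/SNF chromatin remodelling complexes, had loadings of -0.32, -0.78 and -1.17 in wild type and 0.46, 0.00 and 0.41 in gcn2. Here the non-polysomal signal carried most of the difference, with -0.81 in non-polysomal and 0.24 in polysomal RNA. The change was 1.05 (95% interval 0.57 to 1.52, limma adjusted p = 0.219). NRPA1, the largest subunit of RNA polymerase I, which makes the ribosomal RNA precursor, lay in the other direction. Its loadings were 0.96, 0.14 and 0.30 in wild type and -0.94, -0.49 and 0.00 in gcn2, a change of -0.94 (limma adjusted p = 0.295). Among 12 measured subunits of the RNA polymerases, 3 had an unadjusted p under 0.05 and lower loading (25%, against 4.79% of all probe sets). They were NRPA1 and the RNA polymerase III subunits NRPC1 (-0.52) and NRPC2 (-0.50). NRPC1 was near background in both genotypes, and the gradients of the genotypes overlapped in NRPC1 and in NRPC2. NRPD7 (0.45) had one in the other direction (8.33%, against 5.19%). The median of the 12 changes was -0.04, whereas the difference of the list's per-gradient medians was -0.32, and -0.19 without dim probe sets.

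**Figure D3:**
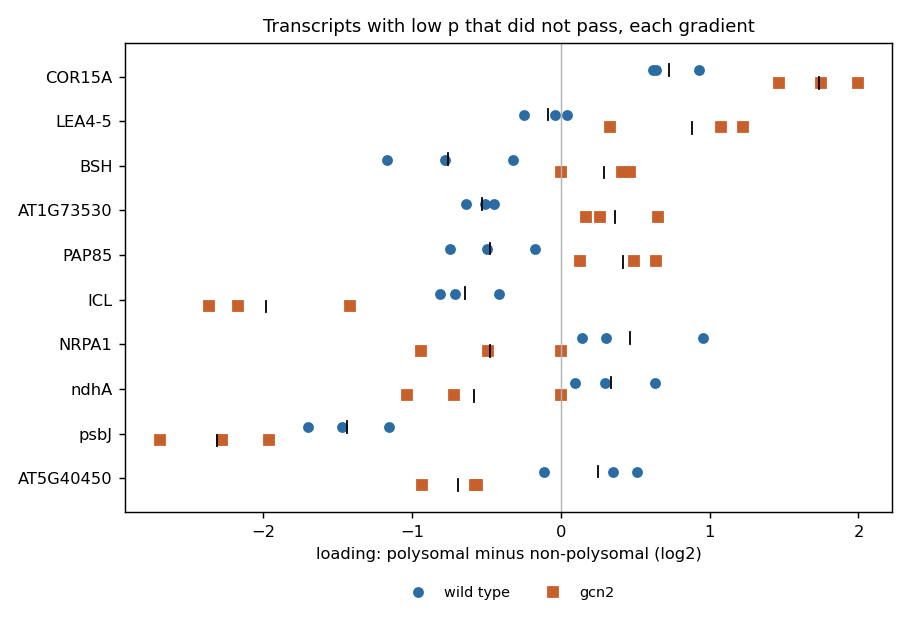
Loading (log2, horizontal axis) of 10 transcripts in each gradient, with blue circles for the 3 wild-type and orange squares for the 3 gcn2 gradients and a tick at each mean. The genotypes do not overlap in any of the 10, which was a condition for those chosen as the largest changes. Over all probe sets this held in 8.16% with higher and 7.15% with lower loading in gcn2. None of the 10 passed the test at an adjusted p of 0.05.

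In 9 probe sets loading passed against 0 in both genotypes with opposite sign, but the change did not pass in any of them. Loading of NRPA1 and AT5G65240 was positive in wild type and negative in gcn2. AT5G65240 was, however, under the background level in wild-type non-polysomal (3.35) and gcn2 polysomal RNA (3.27). Loading was negative in wild type and positive in gcn2 for AT1G73530 (-0.53 and 0.36), AT4G26390 and PAP85. PAP85 was near background in wild type and AT4G26390 in gcn2. Since 0 is relative, so are these signs. For AT1G73530 the wild-type loadings were -0.64, -0.45 and -0.51 and the gcn2 loadings 0.17, 0.65 and 0.26, and its change was 0.90 (limma adjusted p = 0.219).

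Transcripts with conserved upstream reading frames had lower loading in gcn2 in 8 of the 9 that were measured, all of them near background in neither genotype. At an unadjusted p under 0.05 there were 7 of 9 (77.8%, against 4.79% of all probe sets) in that direction, 0 in the other, and 0 passed the adjusted threshold. In 6 of 9 the gcn2 gradients all lay below the wild-type ones, as they did in 7.15% of all probe sets. The median change was -0.47. The median over the 9 genes was 0.33, 0.12 and 0.26 in the wild-type gradients and -0.40, -0.18 and -0.24 in the gcn2 gradients, which did not overlap. The genes were listed for this feature, which was not read from their sequences here. All 9 were measured on the same 6 gradients, so they are not independent cases. The gene lists were chosen with earlier results of these data known.

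SAMDC is an S-adenosylmethionine decarboxylase gene of polyamine synthesis. Its loadings were 0.33, 0.24 and 0.28 in wild type and -0.08, -0.18 and -0.30 in gcn2, on a scale where 0 is relative. The difference was -0.47 (95% interval -0.84 to -0.10), with a limma adjusted p of 0.405. AT5G15950 had 0.72, 0.76 and 0.37 in wild type and 0.04, -0.13 and -0.06 in gcn2, a difference of -0.67 (limma adjusted p = 0.300).

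Among the bZIP transcription factor genes of this list, bZIP44 had loadings of 0.36, 0.54 and 0.18 in wild type and -0.40, -0.02 and -0.33 in gcn2, a difference of -0.61 (limma adjusted p = 0.342). BZIP53, with lower loading in both genotypes, had -1.16, -0.53 and -0.94 against -1.34, -1.58 and -1.27, a difference of -0.52 (limma adjusted p = 0.409). Neither gene's gradients overlapped. PMEAMT, a phosphoethanolamine methyltransferase gene of phosphocholine synthesis, had 1.38, 1.29 and 1.17 against 1.07, 0.89 and 0.55 (-0.44, limma adjusted p = 0.461), again without overlap. BZIP53 and PMEAMT were named after their values were seen. AT5G09460 stood at -0.50 and AT3G25570 at -0.45, whereas AT5G50010 (-0.11) and AT1G73600 (0.04) differed little. In non-polysomal RNA 9 of 9 had a higher signal in gcn2 (median difference 0.19), and in polysomal RNA 7 of 9 a lower one (-0.20). These counts of signs were not tested.

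**Figure D4:**
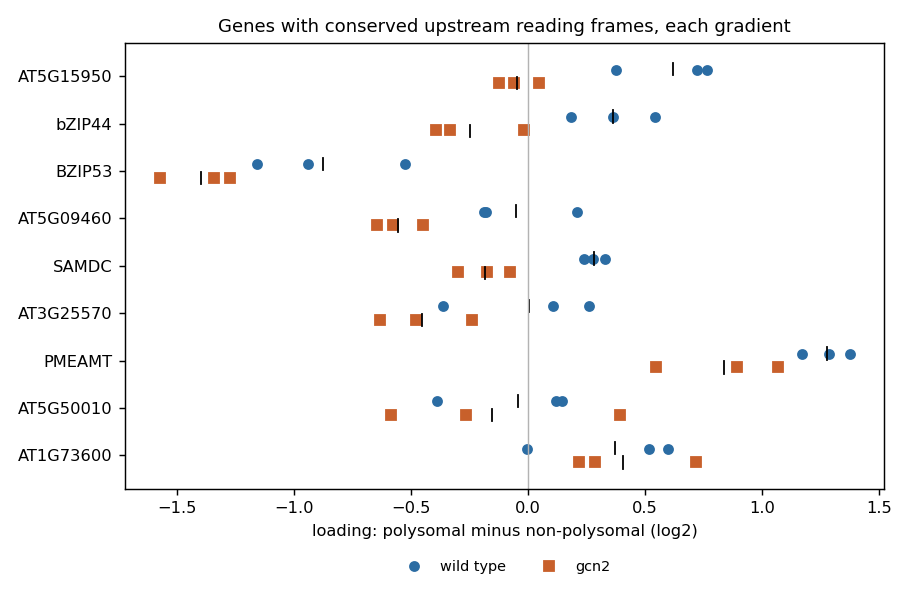
Loading (log2, horizontal axis) of the 9 measured genes with conserved upstream reading frames in each gradient, ordered by the size of the change, with blue circles for wild type, orange squares for gcn2 and a tick at each mean. The gcn2 gradients lie below the wild-type ones without overlap in 6 of 9 genes.

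Gene length moved with the change in loading, and a sign of RNA quality is given beside it. Genes were put in 5 classes of 1821 or 1822 by length, which held only part of the 13355 loci measured. From the shortest to the longest class the median change was 0.06, 0.06, 0.02, -0.04 and -0.09. The share with higher loading in gcn2 at an unadjusted p under 0.05 was 8.01% in the shortest and 1.70% in the longest class, and the share with lower loading 4.56% and 9.66%. On the same arrays, 3' over 5' control probe sets of the array's quality set differed by 2.91 ± 0.16 (log2, SD, n = 3) in wild-type polysomal, 3.24 ± 0.31 in wild-type non-polysomal, 2.99 ± 0.28 in gcn2 polysomal and 3.73 ± 0.42 in gcn2 non-polysomal RNA. The polysomal minus non-polysomal value was -0.33 ± 0.42 in wild type and -0.73 ± 0.35 in gcn2 (exact permutation p = 0.2). The 9 genes with upstream reading frames had a median length of 2216 bases, within the middle class (2004 to 2564 bases). Their lengths ran from 1265 to 4421 bases, so members fell in both the shortest and the longest class. Length was counted from gene start to gene end and is not that of the transcript. The part of these measures in any change was not tested.

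The genotype difference was more often larger in non-polysomal RNA than in polysomal RNA. Of the 1906 probe sets near background in neither genotype with an unadjusted p under 0.05 (11.3% of 16876), 66.3% had a larger genotype difference in non-polysomal than in polysomal RNA. Over all such probe sets this share was 56.5%.

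Plastid-encoded transcripts, which are translated by bacterial-type ribosomes inside the chloroplast, had lower loading in gcn2 in 65 of 69 cases. Of these, 15 had an unadjusted p under 0.05 (21.7%, against 4.79% of all probe sets), 0 did in the other direction, and 0 passed. The median change was -0.46. Gradients varied widely, however: the median over the 69 transcripts was -1.72, -0.40 and -0.72 in wild type and -1.42, -1.96 and -1.07 in gcn2, so that wild-type gradient 1 lay below gcn2 gradients 1 and 3. The difference of these medians, -0.53, became -0.92 without wild-type gradient 1, -0.26 without wild-type gradient 2 and -0.29 without gcn2 gradient 2. In 6 of 69 transcripts the gcn2 gradients all lay below the wild-type ones, a share near the 7.15% of all probe sets. The median difference was -0.32 in polysomal and 0.18 in non-polysomal RNA.

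All 15 transcripts of plastid ribosomal proteins had a negative change (median -0.63). Of these, 8 had an unadjusted p under 0.05, such as rps18 (-0.71) and rps2 (-0.69), where 4.79% of all probe sets did in that direction. For the NADH dehydrogenase-like complex, which returns electrons to the plastoquinone pool, the median was -0.52 over 10 transcripts. Within it, ndhA had loadings of 0.63, 0.29 and 0.09 in wild type and 0.00, -1.03 and -0.72 in gcn2, and ndhI differed by -0.74. Photosystem II transcripts had a median of -0.48 over 15. In this complex psbJ, a small subunit, had -1.70, -1.15 and -1.47 against -2.28, -2.69 and -1.96 (-0.87, limma adjusted p = 0.260). ATP synthase transcripts (6, median -0.49), the cytochrome b6f complex (6, -0.28), photosystem I (5, -0.32) and the plastid RNA polymerase (4, -0.32) were on the same side.

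Nuclear transcripts for photosystem subunits and light-harvesting proteins, made by cytosolic ribosomes, had a positive change in 8 of 8 cases, with a median of 0.22 and 0 at an unadjusted p under 0.05. The median over the 8 was 0.68, 0.63 and 0.56 in wild type and 0.90, 0.90 and 0.79 in gcn2. Those gradients did not overlap, but the list was added after the files were seen. An earlier list of 5 such genes gave medians of 0.16, 0.18 and 0.29 in wild type and 0.32, 0.79 and 0.14 in gcn2, which overlap, and their difference of 0.21 became 0.02 without gcn2 gradient 2. PSAN, of photosystem I, had loadings of 0.84, 0.68 and 0.72 against 1.07, 1.01 and 1.14 (0.33, limma adjusted p = 0.547). The 16 mitochondrion-encoded transcripts had 9 positive changes, a median of 0.21, and 1 transcript of complex I in each direction at an unadjusted p under 0.05, nad1 (0.72) and nad4 (-0.61), which is 6.25% in each direction and near the shares among all probe sets. The value of nad1 belongs to 1 probe set, and the median over its probe sets gave -0.02.

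The partners of GCN2 had changes near 0. The list of GCN2 partners and eIF2-related loci held 9 measured members, with changes from -0.23 to 0.20, a median of -0.02 and 0 at an unadjusted p under 0.05 in either direction. ILA, the homologue of the yeast GCN2 activator GCN1, had loadings of -0.90, -1.09 and -0.74 in wild type and -1.31, -1.27 and -0.67 in gcn2, which overlap (-0.18, 95% interval -0.61 to 0.26). In a separate list of 4 translation factors and partners, which shares ILA, the median change was -0.15. Its 1 member with an unadjusted p under 0.05 was FUG1 (25%, against 4.79% lower among all probe sets). FUG1, the plastid initiation factor IF2, differed by -0.53 (limma adjusted p = 0.376) with no overlap of the gradients, with 0.52 in non-polysomal and -0.01 in polysomal RNA.

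The ATG8 genes, whose products coat autophagosomes, had a lower mean signal in gcn2 in 9 of 9 in polysomal and in 8 of 9 in non-polysomal RNA. The median differences were -0.29 and -0.38. These genes share the same arrays, and the counts of signs were not tested. Of the 9, 0 had an unadjusted p under 0.05 for the change in loading. The changes ranged from -0.27 to 0.35, with a median of -0.08 and a difference of the per-gradient medians of 0.04. Amino acid biosynthesis was represented by 6 genes only, with a median of 0.17 and 0 at an unadjusted p under 0.05. IGPD (0.34), of histidine synthesis, had the highest change and CBL (-0.32), of methionine synthesis, the lowest. Of 13 genes of endoplasmic reticulum quality control 0 had an unadjusted p under 0.05 (median -0.09), and BZIP60, a factor of the unfolded protein response, stood at 0.00.

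Histone transcripts had a median change of -0.19 over 8 genes and 0 at an unadjusted p under 0.05. Counts in larger families were small, and are to be read against the 5.19% higher and 4.79% lower among all probe sets at an unadjusted p under 0.05. Of 47 UDP-glycosyltransferases 3 were higher (6.38%) and 1 lower (2.13%), with a median of 0.03. Of 26 cytochrome P450 genes 1 was higher (3.85%) and 3 lower (11.5%), with a median of 0.04, and of 14 SWEET sugar transporters 2 were higher (14.3%) and 0 lower, with a median of 0.17. Of 989 pseudogenes and transposable element genes, of which 193 were near background in neither genotype, 54 were higher (5.46%, near the share among all probe sets) and 13 lower (1.31%), with a median of 0.06. Across all lists 0 members passed the adjusted threshold.

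**Figure D5:**
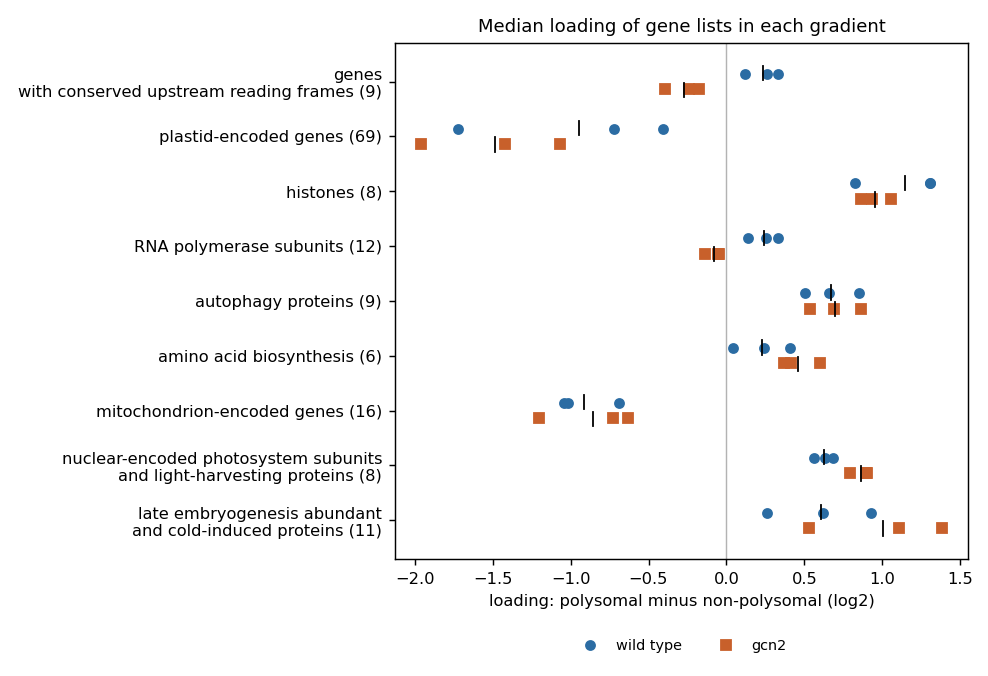
Median loading (log2, horizontal axis) of 9 gene lists in each gradient, with the number of measured genes in brackets, blue circles for wild type, orange squares for gcn2 and a tick at each mean. Genes with conserved upstream reading frames and RNA polymerase subunits show gcn2 gradients below the wild-type ones. For the latter the median change of the 12 genes was only -0.04, against -0.47 for the former. The 8 nuclear photosystem genes of the added list show gcn2 gradients above (those of the earlier list of 5, not drawn, overlap). The plastid gradients overlap.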

How the data were processed

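The values used were the log2 signals per probe set of the series table that the authors deposited; per the submitters' processing notes, RMA, affy and MAS5 were used, but which of them did what is not stated there. Groups and replicate numbers came from the sample titles. The 64 control probe sets were left out, and 22746 probe sets were tested without a filter. Through the platform annotation 13513 of them had 1 gene, 503 several and 8730 none listed. A RefSeq gene table of TAIR10.1 matched 13436, and 1557 of 13355 loci had a name. The probe set with the highest mean stood for a locus.

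Loading was computed per gradient, and the 3 gcn2 values were compared with the 3 wild-type values in limma 3.58.1 under R 4.3.3 (lmFit and eBayes, 4 residual and 12.2 prior degrees of freedom, Benjamini-Hochberg adjustment, 2-sided). The fit was tested on simulated data. Deviations of arrays from their group means correlated at 0.225 to 0.588 between the fractions of a gradient, and at 0.184 to 0.583 between genotypes of the same number. Deviations of loading correlated at 0.161, 0.0554 and 0.108 between genotypes for numbers 1 to 3, and number 2 is under 0.1, so the blocked values stand beside the main ones rather than in their place. That choice was made with the counts of both fits in view.

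The members and gene lists were chosen with earlier results of these data known. Of 42 lists, 30 had at least 3 measured members. Since the tables hold no gene descriptions, many lists matched few genes or none, and 16 lists by symbol or chromosome were added after the files were seen, the one of seed storage genes after its values were seen. Gene length replaced protein length. Named genes were those that passed, where those with 1 gene also had to show no overlap of the gradients. Next came the 12 smallest p-values per direction among transcripts with 1 gene near background in neither genotype. The 5 largest changes per direction came from the same kind of transcript, but only where the gradients did not overlap. Their lack of overlap was thus fixed by the choice. Up to 4 per list by moderated statistic and up to 5 with loading of opposite sign completed the named genes. From these the text gives those with a known role first.

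Alternatives were unpaired arrays, the replicate block, all 18 arrays, a trended and robust prior, 2 quantile normalizations, 2 centrings, 2 filters on dim probe sets, array weights, the median over probe sets of a locus, and each gradient left out in turn.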

Additional observations from a re-analysis of the deposited data

Results flagged for a closer look

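The loading of 3 probe sets differed between gcn2 and wild type in limma's test of the difference itself: AT4G03156 (-3.13, log2), the probe set shared by several loci (-1.77) and AT3G30200 (-1.40), all lower in gcn2. In each, wild type was near background, so the wild-type loading rests on background signal.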

How the results depend on the processing

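The count of 3 passing probe sets (0 higher and 3 lower in gcn2) became 0 (0 lower) with the 12 arrays as unpaired groups without the replicate block, 1 (1 lower) with all 18 arrays as unpaired groups, and 0 (0 lower) among probe sets near background in neither genotype. It became 8 (3 higher, 5 lower) with the replicate block, 7 (2 higher, 5 lower) with array weights and 11 (4 higher, 7 lower) when arrays were centred on the BioB and BioC controls. It was 4 with 1 higher under the trended and robust prior and without dim probe sets. With each gradient left out it ran from 1 to 6, with 0 to 1 higher and 1 to 5 lower. AT4G03156 passed in 16 of 17 alternatives, AT3G30200 and the probe set of several loci in 13 of 17. The difference of the median loading over all probe sets (0.0287) became -0.0600 with control centring, 0.00 with median centring by construction, 0.00335 without dim probe sets and 0.00203 without those near background, and 0.0127 to 0.0444 with each gradient left out.

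The direction turned for 10 of 140 named transcripts, none of which passed. With single gradients left out the change ran from -0.0862 to 0.426 for CCS, -0.0987 to 0.186 for Cpn60beta3, -0.0161 to 0.185 for PSBY, -0.304 to 0.0344 for APG8A and -0.425 to 0.0321 for PDF1.2b. It ran from -0.272 to 0.10 for PPR596, -0.0925 to 0.0709 for LAS, -0.316 to 0.152 for ALATS and -0.44 to 0.00199 for Cpn60beta2. Cpn60beta3 stood at -0.0434 with control centring and nad1 at -0.0192 as the median over its probe sets. The cause was not tested. List differences of per-gradient medians kept their sign in all 13 alternatives run for the upstream reading frame genes (-0.59 to -0.44), plastid genes (-0.92 to -0.26), late embryogenesis abundant and cold-induced genes (0.22 to 0.71) and the 8 nuclear photosystem genes (0.15 to 0.27). That of the pseudogenes and transposable element genes (0.07) was -0.02 with control centring, and that of the ATG8 genes (0.04) had the other sign in 3 of 13. With signals under 3.40 a loading rests on background. Changes under about 0.41 lie within the median 95% interval, which is not adjusted for the number of tests.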
